A study of Rattus norvegicus with 4 samples.

Results

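Laminins and their receptors were examined in Schwann cells (SCs) of the rat, the glia that ensheath and myelinate peripheral axons, by RNA-seq after lentiviral expression of the Egr2 promoter antisense RNA (Egr2-AS). The members were given as a list of 10 genes, of which 6 encode laminin chains (Lama2, Lama4, Lama5, Lamb1, Lamb2 and Lamc1) and 4 encode receptor chains (Itga6, Itgb1, Itgb4 and Dag1). The deposited table holds 17949 genes, among them 8 of the 10 members, and all 8 were among the 12446 genes tested. Lama2 and Lamb1 have no row in it and were not analysed here. Primary SCs from rat sciatic nerve, grown with serum, forskolin and heregulin, received for 48 h either a virus carrying the Egr2-AS (Lenti-AS, n = 2) or the control virus carrying GFP (Lenti-GFP, n = 2). The Egr2-AS vector carries a red fluorescent reporter in place of GFP, so the antisense RNA and the reporter cannot be told apart. The labels call the samples of a group biological replicates but do not say that they came from separate cultures, so p-values measure the spread between these samples, which may be technical.

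A laminin is a cross-shaped protein of an α, a β and a γ chain, secreted by the SC into the basal lamina that surrounds each axon-SC unit. The α2 and α4 chains, each with a β and the γ1 chain, make the main laminins of the endoneurium, and their loss in mice leaves axons unsorted and thinly myelinated. SCs bind laminin through integrins, heterodimers of α and β chains such as α6β1 and α6β4, and through dystroglycan, which joins the basal lamina to the cytoskeleton through utrophin and dystrophin. The integrin with the β1 chain serves radial sorting of axons, whereas the β4 chain and dystroglycan are best known from myelinating SCs.

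Total counts were between 74024323 and 96185890 per sample, and the 8 members together took between 0.900% and 0.992% of them. The SC markers S100b, Erbb3, Ngfr and Sox10 were counted in every sample, although Gap43, also on the marker list, had between 2 and 25 counts. The summed level of the 10 SC markers was between 7203 and 7213 CPM (counts per 1000000, with TMM-scaled library sizes) in Lenti-GFP and was 9097 and 7911 CPM in Lenti-AS 1 and Lenti-AS 2. Of the fibroblast and perineurial list (10 genes), Dcn, Lum, Thy1 and Fap had at most 6 counts in any sample, whereas the collagen genes of that list kept its sum at 3843 to 4290 CPM in Lenti-GFP and at 4704 and 2848 CPM in Lenti-AS 1 and Lenti-AS 2. The endothelial list (7 genes) summed to between 15.9 and 21.3 CPM and the macrophage list (7 genes) to between 3.30 and 4.36 CPM, with Cdh5 at 0 to 5 counts and Aif1 at 0 to 3 counts. Most of the endothelial sum was Tek, a receptor gene of that list, at 19.8 and 20.2 CPM in Lenti-GFP and at 15.3 and 14.7 CPM in Lenti-AS (edgeR adjusted p = 0.0559; DESeq2 adjusted p = 0.00324). Most of the macrophage sum was Csf1r, with 170 to 182 counts, and Cd68, with 120 and 112 counts in Lenti-GFP and 161 and 135 in Lenti-AS (edgeR adjusted p = 0.194). Tek was thus lower and Cd68 higher in both Lenti-AS samples, and neither was called by edgeR. Tek, Cd68 and Csf1r are on the marker lists but were singled out after their values had been seen. The SC marker sum was thus higher in both Lenti-AS samples, and its part in the values below was not tested. The Lenti-AS samples differed more from one another than the Lenti-GFP samples did, by a chi-square of 103 for each gene on average against 32.4, where sampling one library again would give 1. Globin genes and the loci counted with them took 0.345% of the counts in Lenti-AS 2 and at most 0.00108% in the other samples.

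No laminin or laminin receptor gene passed edgeR's test between Lenti-AS and Lenti-GFP, whereas DESeq2 called 1. A call took an adjusted p below 0.05 in edgeR's quasi-likelihood test, with Benjamini-Hochberg adjustment over all 12446 genes, together with a fold of 1.3 or more. It was met by 0 of the 8 tested members, against 1.98% of all genes tested (1.31% higher and 0.667% lower in Lenti-AS). At an unadjusted p under 0.05 there were 5 members (Lama5, Itga6, Itgb1, Itgb4 and Dag1), against 21.8% of all genes. The same 5 members were those whose samples did not overlap between the groups, which held for 54.9% of all genes. In 4 of them both Lenti-AS samples were the higher, against 27.7% of all genes, and in 1, Itgb1, the lower, against 27.2%. The authors' methods name DESeq2, with the same cut-offs. DESeq2 called 1 member, Lama5, against 6.25% of the 10033 genes to which it gave an adjusted p. With limma-voom 0 members were called, against 1.89% of all genes. The fitted log2 fold change was above 0 for 6 members and below 0 for 2, Lama4 and Itgb1. Of all 12446 genes tested, it was above 0 for 6385 and below 0 for 6061. Its median over the 8 members was 0.16, against 0.0071 over all genes tested. In bulk RNA, fewer cells of a type and less RNA per cell cannot be told apart.

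**Figure D1:**
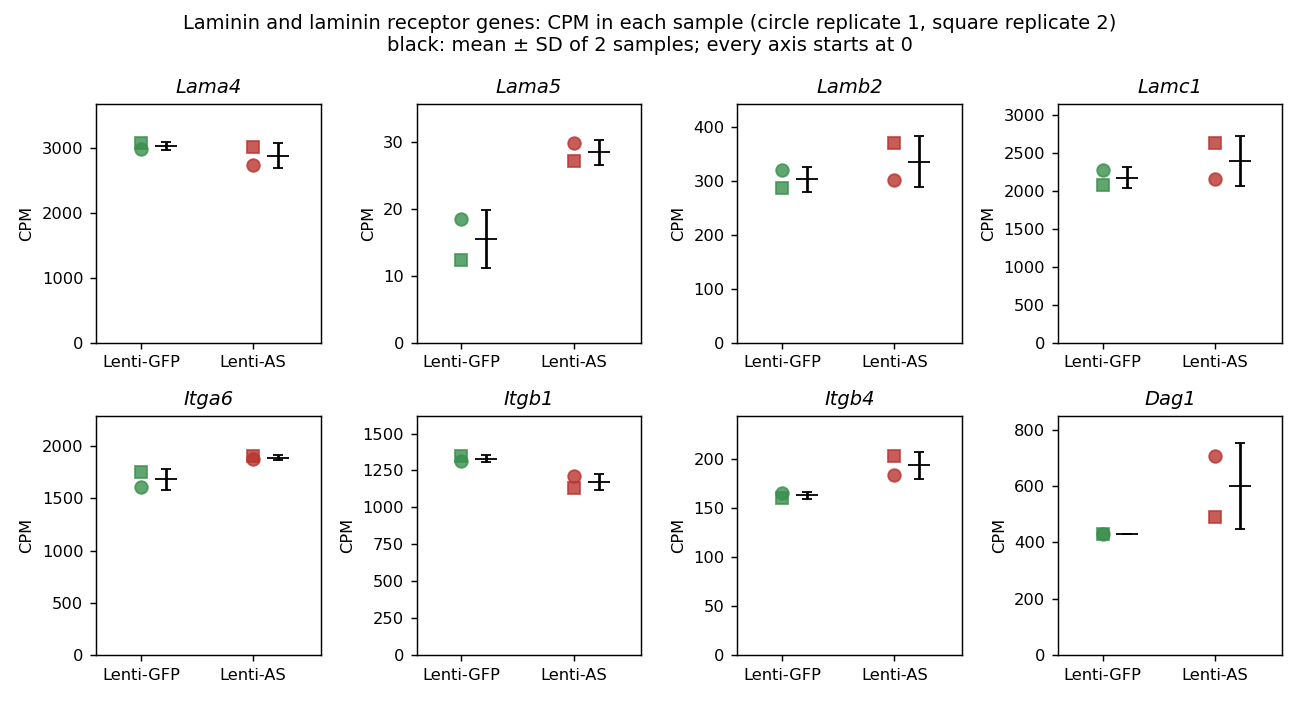
Level of each tested laminin and laminin receptor gene in CPM (vertical axis from 0) in the 2 Lenti-GFP samples (green) and the 2 Lenti-AS samples (red), with the mean and SD in black. The samples of the groups overlapped for Lama4, Lamb2 and Lamc1 and did not for the other 5 genes, and Dag1 was higher in Lenti-AS 1 (708 CPM) than in Lenti-AS 2 (491 CPM).

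The stretches before the transcription start of Lama4, Lama5, Lamc1 and Itgb1 are shown to set the α chain gene with the largest fitted change beside its counterpart with almost none, and beside the shared γ chain and the shared β integrin chain. Each is the 250 bases before the RefSeq start in the GRCr8 build, written on the gene's strand, and RefSeq promoters were used here for 6 of the 10 members. Lamb2, Itga6, Itgb4 and Dag1 are named only. The windows are chr20:43946648-43946897 (plus strand) for Lama4, chr3:187695975-187696224 (minus strand) for Lama5, chr13:68051987-68052236 (minus strand) for Lamc1 and chr19:73602027-73602276 (plus strand) for Itgb1. Capitals mark matches, on either strand, to the letters of 6 motifs: the GC box GGGCGG, the EGR family motif GCGNGGGCG, the AP-1 motif TGANTCA, a YY1 motif AANATGG, the TATA box TATAAA and the CCAAT box CCAAT.
Lama4: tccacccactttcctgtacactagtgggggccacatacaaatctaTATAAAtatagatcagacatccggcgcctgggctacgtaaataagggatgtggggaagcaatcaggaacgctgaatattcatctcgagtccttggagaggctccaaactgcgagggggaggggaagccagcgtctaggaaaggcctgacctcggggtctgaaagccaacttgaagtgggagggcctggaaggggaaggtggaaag
Lama5: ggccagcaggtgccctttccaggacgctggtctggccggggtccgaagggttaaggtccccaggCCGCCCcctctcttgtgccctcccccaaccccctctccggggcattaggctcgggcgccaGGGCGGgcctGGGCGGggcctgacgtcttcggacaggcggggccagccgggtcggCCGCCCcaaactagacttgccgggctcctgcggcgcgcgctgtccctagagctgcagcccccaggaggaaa
Lamc1: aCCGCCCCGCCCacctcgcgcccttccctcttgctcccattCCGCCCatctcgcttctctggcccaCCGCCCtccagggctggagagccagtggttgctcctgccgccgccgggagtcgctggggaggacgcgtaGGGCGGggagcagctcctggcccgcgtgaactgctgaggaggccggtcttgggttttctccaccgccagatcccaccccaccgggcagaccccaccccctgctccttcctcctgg
Itgb1: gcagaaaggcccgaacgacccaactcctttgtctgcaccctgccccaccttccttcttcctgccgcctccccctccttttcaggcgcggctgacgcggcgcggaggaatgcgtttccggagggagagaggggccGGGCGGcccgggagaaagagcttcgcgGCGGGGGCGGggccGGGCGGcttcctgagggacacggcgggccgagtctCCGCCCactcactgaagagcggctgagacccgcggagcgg
The window of Lama4 holds a TATA box match from -205 to -200 and no GC box, and its GC content is 53.2%. Those of Lama5, Lamc1 and Itgb1 hold 4, 5 and 4 GC boxes and have GC contents of 72.8%, 71.2% and 71.2%, above those of 94.7%, 93.1% and 93.1% of all 33469 RefSeq promoters of that length. A match to the GC box is found in 30.5% of these promoters and one to the TATA box in 12.9%. The EGR motif, of the family to which Egr2 belongs, matched from -89 to -81 before Itgb1, where it overlaps a GC box, and from -77 to -69 before Lamb1, where it overlaps a GC box too. It is found in 4.29% of all promoters. The AP-1 motif, found in 6.34%, matched in none of the 6 windows, and the YY1 motif, found in 13.8%, and the CCAAT box, found in 34%, matched before Lama2 alone. The first pair of GC boxes before Lamc1 share a base. Such a match describes letters and is no binding site.

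Of the laminin α chains, Lama5 had the larger fitted change and Lama4 a small one, with neither past the threshold of edgeR's test. Lama5 encodes the α5 chain, known in nerve from the laminin at nodes of Ranvier and in vessel walls. It had 1728 and 1172 counts (18.5 and 12.4 CPM) in Lenti-GFP 1 and Lenti-GFP 2, and 2605 and 2034 counts (29.7 and 27.1 CPM) in Lenti-AS 1 and Lenti-AS 2. Both Lenti-AS samples lay above both Lenti-GFP samples, and the gap between the groups, 8.55 CPM, was larger than that within Lenti-GFP, 6.15 CPM. Lenti-GFP averaged 15.4 ± 4.35 CPM and Lenti-AS 28.4 ± 1.88 CPM (SD, both n = 2), a fitted fold of 1.84 (log2 fold change 0.88, standard error 0.19, edgeR adjusted p = 0.0780), which did not pass. With DESeq2 the log2 fold change was also 0.88, and the adjusted p was 0.000106. The 95% interval of the fold, for this gene alone and not adjusted for the number of genes, ran from 1.34 to 2.52.

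The Lenti-GFP samples themselves differed in Lama5. Their levels stood 1.50-fold apart, and of the 7557 genes with a mean count of at least 1000, 0.238% differed more between these samples, whereas the Lenti-AS samples were 1.10-fold apart. The fitted log2 fold change of Lama5 was 1.20 without Lenti-GFP 1 and 0.62 without Lenti-GFP 2. Without Lenti-AS 1 it was 0.81 and without Lenti-AS 2 it was 0.95. In both of these fits the remaining Lenti-AS sample is assumed to vary as the Lenti-GFP samples do. Plec, which encodes the plectin that links the β4 integrin chain to intermediate filaments, also had a lower level in Lenti-GFP 2 (1425 CPM) than in Lenti-GFP 1 (1963 CPM), a 1.38-fold difference. The part of that library in the Lama5 result was not tested.

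Lama4 encodes the α4 chain, which SCs produce at high levels during development and after injury. With 278441, 290663, 239991 and 226595 counts in Lenti-GFP 1, Lenti-GFP 2, Lenti-AS 1 and Lenti-AS 2, it was read at great depth. The Lenti-GFP samples stood at 2983 and 3067 CPM, the Lenti-AS samples at 2738 and 3014 CPM, so the groups overlapped. The fitted fold was 0.951 (log2 fold change -0.07, standard error 0.07, edgeR adjusted p = 0.555), and its 95% interval ran from 0.850 to 1.06. For each 100 counts of Lama4 there were 0.621 and 0.403 counts of Lama5 in Lenti-GFP and 1.09 and 0.898 in Lenti-AS, so the Lenti-AS samples had the higher ratio. An exact permutation test of 2 samples against 2 cannot give a two-sided p below 0.33, and that of this ratio was 0.33.

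The β2 and γ1 chains followed one another closely across the samples. Lamb2 encodes the β2 chain, best known from the synaptic basal lamina of muscle and also made by SCs, and Lamc1 the γ1 chain, present in nearly all laminins of the nerve. Lamb2 was at 320 and 287 CPM in Lenti-GFP and at 303 and 370 CPM in Lenti-AS. Lamc1 was at 2273 and 2078 CPM in Lenti-GFP and at 2164 and 2627 CPM in Lenti-AS. In both genes Lenti-AS 2 was the highest sample, and Lenti-AS 1 lay between the Lenti-GFP samples. For each 100 counts of Lamc1 there were 14.1, 13.8, 14.0 and 14.1 counts of Lamb2 in Lenti-GFP 1, Lenti-GFP 2, Lenti-AS 1 and Lenti-AS 2. The counts of Lama4 for each 100 of Lamc1 were 131, 148, 127 and 115 in the same order, lowest in Lenti-AS 2. Both ratios were added after the values had been seen. The fitted folds were 1.11 for Lamb2 and 1.10 for Lamc1 (edgeR adjusted p = 0.459 and 0.464), with 95% intervals from 0.922 to 1.33 and from 0.925 to 1.31. Without Lenti-AS 2 both log2 fold changes turned to -0.0051 and -0.0076, whereas without Lenti-AS 1 they were 0.29 and 0.27.

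**Figure D2:**
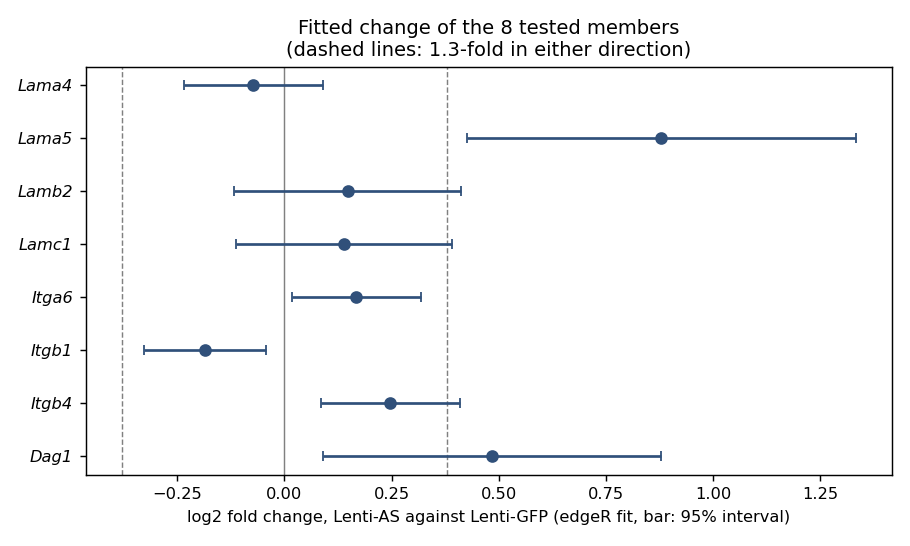
Fitted log2 fold change of each tested member, Lenti-AS against Lenti-GFP (horizontal axis), with its 95% interval for that gene alone. The intervals of Lama4, Lamb2 and Lamc1 span 0, that of Itgb1 lies below 0, and the one interval wholly beyond 1.3-fold (dashed line) is that of Lama5.

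Of the integrin genes, Itgb1 had lower values in both Lenti-AS samples and Itga6 and Itgb4 higher ones, each by a small margin and none past the adjusted threshold of edgeR's test. Itgb1 encodes the β1 chain, shared by most laminin and collagen receptors of SCs. It was at 1312 and 1349 CPM in Lenti-GFP and at 1209 and 1131 CPM in Lenti-AS (means of 1330 ± 25.8 against 1170 ± 55.4 CPM, SD, both n = 2). No Lenti-AS sample reached the level of a Lenti-GFP sample, and the gap of 103 CPM separating the groups exceeded the 78.4 CPM separating Lenti-AS 1 from Lenti-AS 2. The fitted fold was 0.879 (log2 fold change -0.19, standard error 0.06, edgeR adjusted p = 0.152), with a 95% interval from 0.796 to 0.971. DESeq2 gave an adjusted p of 0.0434, at a fold short of the 1.3 cut-off.

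Itga6, which encodes the α6 chain and pairs with either β1 or β4, was at 1613 and 1754 CPM in Lenti-GFP and at 1875 and 1908 CPM in Lenti-AS. All Lenti-AS values were above all Lenti-GFP values, with a gap of 121 CPM between the groups against 140 CPM within Lenti-GFP. Its fitted fold was 1.12 (95% interval from 1.01 to 1.25; edgeR adjusted p = 0.197). Itgb4 encodes the β4 chain, which pairs with α6 alone and carries a long cytoplasmic tail that binds plectin. It was at 165 and 160 CPM in Lenti-GFP and at 183 and 203 CPM in Lenti-AS, and the Lenti-GFP samples were within 4.68 CPM of one another while the Lenti-AS samples were 19.6 CPM apart. The fitted fold was 1.19 (log2 fold change 0.25, standard error 0.07, edgeR adjusted p = 0.119), with a 95% interval from 1.06 to 1.33, and DESeq2 gave an adjusted p of 0.0223 at a fold under 1.3.

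Because scaling of the libraries cancels in a ratio of counts within a sample, the integrin chains were also set against one another. For each 100 counts of Itgb1 there were 123 and 130 counts of Itga6 in Lenti-GFP and 155 and 169 in Lenti-AS. The counts of Itgb4 for each 100 of Itgb1 were 12.6 and 11.9 in Lenti-GFP and 15.2 and 17.9 in Lenti-AS. In both ratios the Lenti-AS samples lay above the Lenti-GFP samples (exact permutation test, p = 0.33, the smallest two-sided value this design allows). The counts of Itga6 for each 100 of Itgb4 overlapped between the groups, at 977 and 1093 in Lenti-GFP and 1022 and 940 in Lenti-AS. A ratio of counts of genes of different length is no ratio of transcripts.

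Dag1 encodes dystroglycan, whose α subunit binds the globular domains of laminin and whose β subunit spans the membrane. It had 40005 and 40587 counts (429 and 428 CPM) in Lenti-GFP 1 and Lenti-GFP 2, and 62011 and 36891 counts (708 and 491 CPM) in Lenti-AS 1 and Lenti-AS 2. The Lenti-GFP samples differed by 0.334 CPM and the Lenti-AS samples by 217 CPM, so both Lenti-AS samples were above Lenti-GFP, Lenti-AS 1 by far the more. Of the genes with a mean count of at least 1000, 2.74% differed more between the Lenti-AS samples than Dag1, at 1.44-fold. The fitted fold was 1.40 (log2 fold change 0.48, standard error 0.16, edgeR adjusted p = 0.168), with a 95% interval from 1.06 to 1.84. The log2 fold change was 0.20 without Lenti-AS 1 and 0.72 without Lenti-AS 2, and the fold cut-off was met only in the latter of these 2 fits. Both fits take the spread from the Lenti-GFP samples, which differed little in Dag1. For each 100 counts of Itgb1 there were 32.7 and 31.7 of Dag1 in Lenti-GFP and 58.5 and 43.4 in Lenti-AS (exact permutation test, p = 0.33).

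Other genes chosen after their values were seen were also high in Lenti-AS 1. Nid2, which encodes the nidogen that links laminin to type IV collagen, was at 211 and 207 CPM in Lenti-GFP and at 355 and 238 CPM in Lenti-AS, a level 1.70 and 1.14 times the Lenti-GFP mean in the Lenti-AS samples, where Dag1 stood at 1.65 and 1.15 times. Sox10, the transcription factor of SC identity, was at 2.18 times the Lenti-GFP mean in Lenti-AS 1 and at 0.818 times in Lenti-AS 2. The fibrillar collagen gene Col1a1 was at 2.73 and 0.372 times that mean. None of these 3 genes was called (edgeR adjusted p between 0.177 for Nid2 and 0.672 for Col1a1). Col3a1, the fibrillar collagen gene with the most counts on the fibroblast list, was instead below the Lenti-GFP mean in both Lenti-AS samples, at 0.707 and 0.772 times (edgeR adjusted p = 0.0520). DESeq2 and limma-voom called it, with adjusted p = 4.86e-06 and 0.0459. Lenti-AS 1 was thus not high for every gene of that list, and the part of that library in the Dag1 value was not tested.

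**Figure D3:**
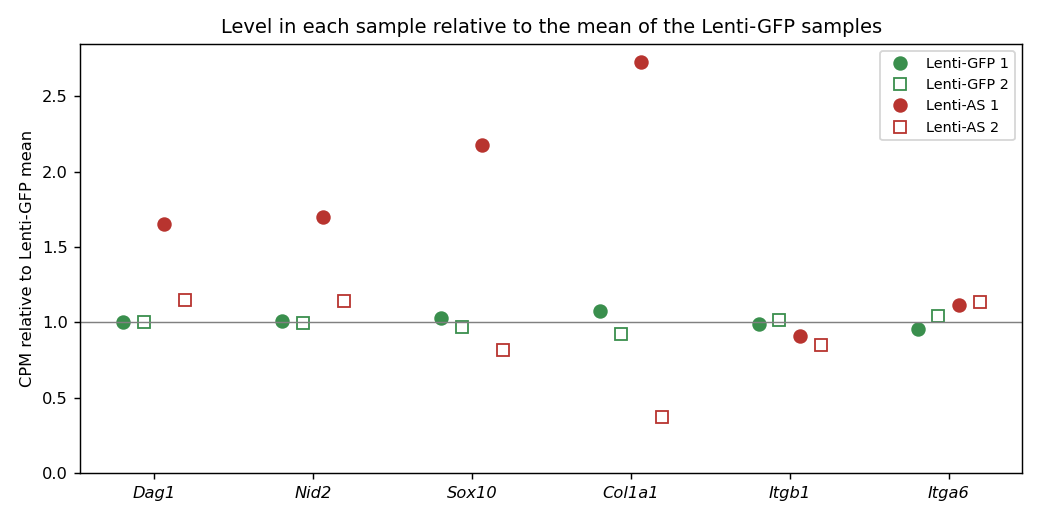
Level of 6 genes in each sample relative to the mean of the Lenti-GFP samples (vertical axis, CPM ratio from 0). Dag1, Nid2, Sox10 and Col1a1 were highest in Lenti-AS 1 (filled red), while the Lenti-AS samples stood near one another for Itgb1 (0.909 and 0.850) and Itga6 (1.11 and 1.13).

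Leaving out each sample in turn kept the direction of the fitted change for Lama4, Lama5, Itga6, Itgb1, Itgb4 and Dag1, and turned it for Lamb2 and Lamc1 without Lenti-AS 2. The range was -0.23 to -0.14 for Itgb1, 0.11 to 0.23 for Itga6 and 0.17 to 0.32 for Itgb4 on the log2 scale.

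**Figure D4:**
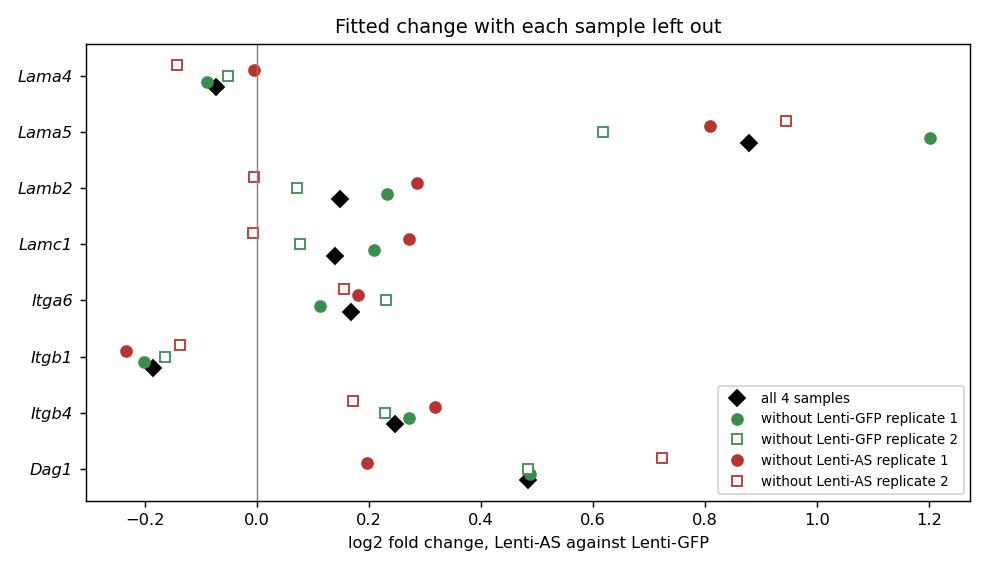
Fitted log2 fold change of each tested member (horizontal axis) with all 4 samples (black) and with 1 sample left out (green, a Lenti-GFP sample; red, a Lenti-AS sample). The values of Lama5 spread with the Lenti-GFP sample left out (0.62 to 1.20) and those of Dag1 with the Lenti-AS sample left out (0.20 to 0.72).

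The other genes of laminin assembly, binding and anchoring were taken from 8 lists of 97 genes, of which 83 have a row and 75 were tested. With edgeR 0 of the 75 were called, against 1.98% of all genes, and 21 had an unadjusted p under 0.05, against 21.8% of all genes. DESeq2 called 2 of the 67 to which it gave an adjusted p, Rac1 and Itga4, against 6.25% of all such genes, and limma-voom called 0, against 1.89%. Among the other laminin chains, Lama1, Lamb3 and Lamc3 had between 0 and 49 counts in any sample.

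Among the 8 tested genes for other laminin-binding receptors and syndecans, 5 had a fitted change above 0 and 3 below (median log2 fold change 0.06). Over all 12446 genes tested, 6385 were above 0. The heparan sulfate proteoglycan gene Sdc4, a partner of integrins at adhesion sites, had the smallest p of this list, at 558 and 588 CPM in Lenti-GFP and 461 and 464 CPM in Lenti-AS (log2 fold change -0.31, edgeR adjusted p = 0.0520). Its Lenti-AS samples were within 2.53 CPM of one another, and the groups did not overlap. Itga7, which encodes the α7 chain of another laminin-binding integrin and was chosen after its values were seen, was at 1065 and 1077 CPM in Lenti-GFP and 1081 and 1231 CPM in Lenti-AS (edgeR adjusted p = 0.425). Bcam, a receptor gene for the laminin α5 chain chosen here after its values were seen, was at 18.1 and 16.4 CPM in Lenti-GFP and 21.3 and 22.5 CPM in Lenti-AS (log2 fold change 0.35, edgeR adjusted p = 0.0987).

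The dystrophin and sarcoglycan complex, which holds dystroglycan to the cytoskeleton, had 13 tested genes whose median log2 fold change was 0.12. Of these, 10 were above 0, against 6385 of all 12446 genes tested. The smallest p of the complex belonged to Sgce, the ε-sarcoglycan gene, at 157 and 162 CPM in Lenti-GFP and 140 and 131 CPM in Lenti-AS (log2 fold change -0.24, edgeR adjusted p = 0.103). The 16 genes for the enzymes that build the laminin-binding sugar of dystroglycan were split evenly, with 8 above and 8 below 0 and a median of 0.0041. Of these, B3galnt2, a transferase gene, had the smallest p, at 48.3 and 50.5 CPM in Lenti-GFP and 37.6 and 42.0 CPM in Lenti-AS (log2 fold change -0.31, edgeR adjusted p = 0.111).

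Other basal lamina proteins gave 8 tested genes with a median of 0.03. Agrn, which encodes agrin, a laminin-binding and dystroglycan-binding proteoglycan, was at 175 and 155 CPM in Lenti-GFP and 133 and 143 CPM in Lenti-AS (log2 fold change -0.26, edgeR adjusted p = 0.136). The 3 tested hemidesmosome partners had a median of 0.13, with the smallest p at Plec (edgeR adjusted p = 0.270). The 16 tested genes of integrin linkage and signalling had a median of 0.06, and among them the small GTPase gene Rac1, known to act below the β1 chain in axon sorting, had 36.5 and 36.3 CPM in Lenti-GFP and 55.2 and 46.1 CPM in Lenti-AS (log2 fold change 0.48, edgeR adjusted p = 0.0755). The 8 tested genes for other integrin chains had a median of -0.07, and Itga4, which encodes a chain of fibronectin receptors, was at 70.5 and 72.9 CPM in Lenti-GFP and 50.3 and 57.4 CPM in Lenti-AS (log2 fold change -0.41, edgeR adjusted p = 0.0768). The adjusted p of Rac1 was 0.000698 and that of Itga4 0.000477 with DESeq2. At folds under 1.3, DESeq2 adjusted p was also below 0.05 for Sdc4 (5.2e-05), Sgce (0.0144), B3galnt2 (0.0150), Bcam (0.0283) and Agrn (0.0287). For Plec the DESeq2 adjusted p was 0.106 and for Itga7 0.426.

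**Figure D5:**
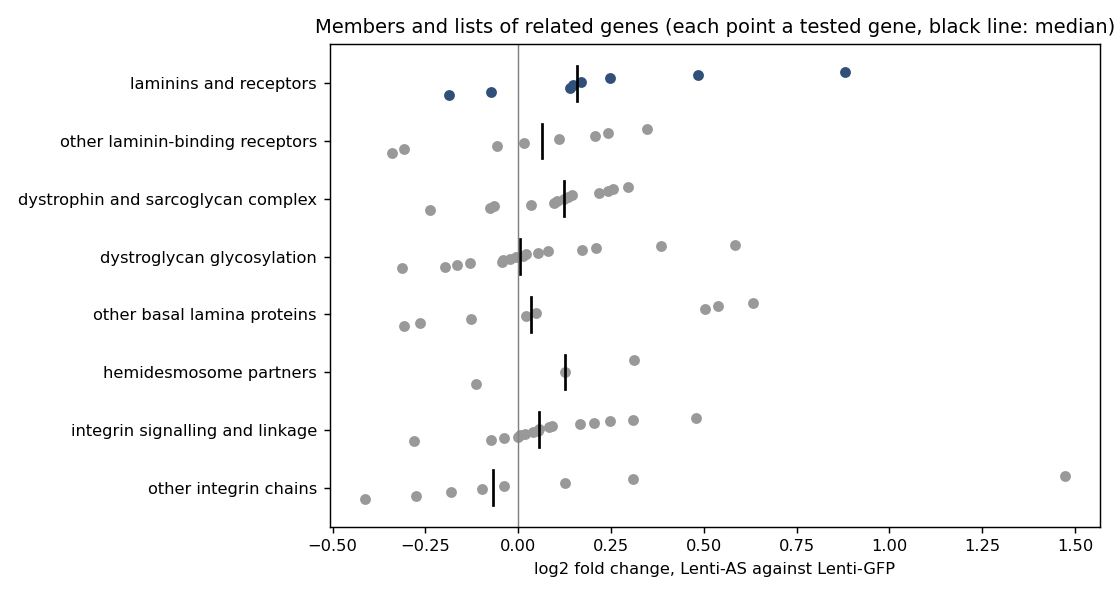
Fitted log2 fold change (horizontal axis) of every tested gene of the laminin and receptor list (blue) and of 7 lists of related genes (grey), with the median of each list as a black line. The list of other laminin chains, whose median lay above that of the laminin and receptor list on at most 49 counts for any gene in any sample, is not plotted. The plotted medians lay between -0.07 for the other integrin chains and 0.16 for the laminin and receptor list, against 0.0071 for all genes tested.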

How the data were processed

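RNA was taken from 4 samples of cultured rat SCs, 2 Lenti-GFP and 2 Lenti-AS, 48 h after infection, and sequenced as 50 bp paired-end reads. The authors' methods name hisat2 for alignment to rn6, whereas the submitters' processing notes name GSNAP, and both featureCounts, run on RefSeq exons. The deposited values are raw counts, one whole number for each gene. How strand and multiply mapped reads were handled is not given in the sources used here, so counts of genes with overlapping or antisense partners are uncertain. A row that repeats the header was dropped.

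The 12446 of 17949 genes that reached 10 counts in 2 or more samples were compared with edgeR 4.0.16 in R 4.3.3 (TMM factors, glmQLFit and glmQLFTest with defaults, no replicate term), with Benjamini-Hochberg adjustment over all genes tested, and a call took an adjusted p below 0.05 and a fold of 1.3 or more. Standard errors came from the F statistic and 95% intervals from the moderated degrees of freedom. CPM values use TMM-scaled library sizes. The alternatives were DESeq2 1.42.0, limma-voom (limma 3.58.1), RLE factors, library totals, other filters, no fold cut-off, a replicate block and leaving out each sample. Of 8 ratios planned, 3 need Lama2 or Lamb1 and were not computed, and with the added ratios 7 were compared, each by a test that cannot pass. The members and lists were chosen with earlier results of these data known. Beside the members, the gene of each list with the smallest p was named where none was called, and genes named after their values were seen are marked so. Transcript lengths were not used, so levels are not compared between genes. Upstream sequences are RefSeq's, from GRCr8, and no coordinates were converted. Some genes of the lists are not reported here by name or value, and the counts and sums over the lists include them.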

Additional observations from a re-analysis of the deposited data

How the results depend on the processing

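How many genes were called varied with the test and with single samples. Against 163 genes higher and 83 lower with edgeR, DESeq2 called 488 and 139 (1 of the laminin and receptor genes, Lama5) and the replicate block 3 and 14 (0 of them). Leaving out one sample gave 0 to 1266 genes higher, 1 to 271 lower and 0 to 2 of the laminin and receptor genes, which were Lama5 without Lenti-AS 1 and Lama5 and Dag1 without Lenti-AS 2. These fits rest the spread on 1 group of 2 samples. Each fit without a Lenti-AS sample also called more of all genes than edgeR did with all 4 samples. Each fit without a Lenti-GFP sample called fewer. The calls of Lama5 and Dag1 were thus made in fits where calls rose over all genes. Calls with a higher level in Lenti-AS made up 66.3% under TMM, 73.4% under library totals and 77.8% under DESeq2, and library totals moved the median log2 fold change of all genes to 0.04 and that of the members to 0.19. The other scalings, filters and limma-voom stayed within 1.5 times of these counts and called 0 members. No alternative with all 4 samples turned the sign of a member.

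The replicate numbers are not stated to mark a shared culture, and deviations from the group means were not shared by samples of one number (r = -0.018 over genes, which are not independent). With the replicate block the adjusted p of Lama5 was 0.0797 and that of Dag1 0.183, and 5 members had an unadjusted p under 0.05, as without it.

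With one sample left out the log2 fold change ranged from -0.0051 to 0.29 for Lamb2, from -0.0076 to 0.27 for Lamc1, from -0.29 to 1.12 for Sox10 and from -1.43 to 1.45 for Col1a1, below 0 without Lenti-AS 2 for the laminin genes and without Lenti-AS 1 for Sox10 and Col1a1. The cause was not tested. Each tested member had over 1000 counts in every sample. With 2 samples per group, a missing call does not show that a gene was unchanged.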
